A study of Mus musculus with 4 samples.

Results

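Interferon-stimulated genes are the genes that cells switch on when an interferon binds its receptor, and their products detect, block or mark invading viruses. The 45 genes described here were taken from a list of commonly used members of this class in the mouse. They were chosen with earlier results of these data known. Their shares, set beside those of all regions below, are therefore descriptions and not tests. Their regions were all deposited peaks of 4 ATAC-seq libraries that overlapped a gene body or the 5 kb on either side of it, and overlapping peaks were merged into 1 region. The rule found 336 regions, out of 388087 in the whole series. In ATAC-seq the Tn5 transposase cuts accessible DNA, so a peak marks open chromatin and not transcription, and no RNA level is reported here.

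The libraries came from microglia, the resident macrophages of the brain, sorted by flow cytometry from untreated C57BL/6 mice aged 3 months. There were 2 groups of 2 libraries each, WT and IRF8KO. The comparison asks how open chromatin differs when IRF8, an interferon regulatory factor (IRF) that guides macrophage development, is missing. The labels do not say which part of Irf8 was removed, and they do not state that the replicates came from separate mice, so every p-value measures only the spread between these libraries, which may be technical. In bulk material such as this, fewer cells with an open site and less opening per cell cannot be told apart.

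Type I interferon signals through the receptor subunits IFNAR1 and IFNAR2, the kinases JAK1 and TYK2, and a nuclear complex containing IRF9 that binds the interferon-stimulated response element, or ISRE. Other members of the IRF family bind the same element, and IRF8 also binds, together with the ETS factor PU.1, a composite element in which an ETS site abuts an IRF site. Microglia carry many of these genes at a low level without infection and raise them in viral encephalitis, ageing and neurodegeneration.

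The sequences shown first hold one of the elements just named near the summit of a region called or listed in 1 genotype alone. Of these, 10 were taken: first regions of 1 genotype by peak score, then called regions by the size of the log2 difference. The distal stretches at Mx2 and Gbp5 among them are not shown. The sequences are examples, and the Mx1 promoter holds neither element. Other regions that moved are not shown, such as the Ifih1 and Gbp7 promoters, which hold ISRE letters within 100 bp of the summit. The Dhx58 and Herc6 promoters hold ISRE letters only farther from the summit and are not shown either. Each stretch is from GRCm38 and runs 5′ to 3′ on the strand on which the element reads forward. Capitals mark the match to the ISRE letters GAAANNGAAA or, in Cmpk2 and Isg20, to the ETS-IRF letters GGAANNGAAA. Stretches that overlap an exon were kept to 30 bases. The first 6 come from regions that were higher in IRF8KO or listed only there, and the last 2 from regions that were lower in IRF8KO.

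Rsad2 upstream region, chr12:26460238-26460297, plus strand: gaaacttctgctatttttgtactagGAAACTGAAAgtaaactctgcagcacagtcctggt

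Rsad2 promoter, chr12:26456538-26456597, plus strand: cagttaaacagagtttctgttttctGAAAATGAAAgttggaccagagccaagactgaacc

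Cmpk2 promoter, chr12:26469260-26469289, minus strand: aggatccccgGGAAACGAAAgtgaaggcag

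Gbp2 promoter, chr3:142620594-142620623, minus strand: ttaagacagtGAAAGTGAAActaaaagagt

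Oas2 promoter, chr5:120749890-120749949, plus strand: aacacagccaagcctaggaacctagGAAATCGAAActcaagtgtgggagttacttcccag

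Oas3 promoter, chr5:120777700-120777759, minus strand: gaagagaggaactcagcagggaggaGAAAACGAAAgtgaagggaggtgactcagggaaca

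Isg20 upstream region, chr7:78912540-78912599, minus strand: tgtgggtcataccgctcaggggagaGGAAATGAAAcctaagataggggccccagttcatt

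Slfn8 promoter, chr11:83020824-83020883, plus strand: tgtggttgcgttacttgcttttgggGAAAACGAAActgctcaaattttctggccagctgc

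The ISRE letters were common in the promoters of these genes, as read from the reference genome in peaks of either genotype. Promoter regions are those within 1 kb of an annotated start site, and 44 of the 45 genes had at least 1 such region of their own, the exception being Sp100. Within 100 bp of the summit, on either strand, 32 of 87 own promoter regions that held a strict peak in at least 1 library (36.8%) contained GAAANNGAAA, against 2.37% of all 26362 promoter regions. A strict peak is one with a −log10 q of 2 or more. The highest promoter region of a gene contained it in 26 of 44 genes (59.1%). In the RefSeq promoter table for GRCm38.p6, which covers 250 bp before to 50 bp after a start site, 35 of the 45 genes were matched and 20 of these (57.1%) held it, against 3.99% of 27025 genes. Since genes of this class are known for this element, the shares describe the list and test nothing about the genotypes.

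The other elements were less marked. The ETS-IRF letters lay in 8 of 87 own promoters (9.2%, against 2.83% of all promoters) and in 4 of 120 distal regions (3.33%, against 4.61%), and their letters can overlap an ISRE match. The gamma-activated site TTCNNNGAA, known from the response to interferon gamma, was in 12 of 87 own promoters (13.8%, against 4.53%). The AP-1 letters TGANTCA were in 17 (19.5%, against 4.57%). The PU.1 core GGAAGT was in 21 (24.1%, against 24.5%). In the 120 distal regions the ISRE letters were in 13 (10.8%, against 3.28% of all distal regions), the PU.1 core in 51 (42.5%, against 32%), the gamma-activated site in 4 (3.33%, against 6.2%) and the AP-1 letters in 8 (6.67%, against 8.86%).

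Each peak carries the authors' own pileup, the number of extended cut sites stacked at its summit. Values below are normalised pileup, that is pileup per 1000000 tags, using the tag totals of the file headers, which were 46948938 and 48896408 in WT and 78793572 and 66224648 in IRF8KO. Setting them side by side assumes that pileup scales with tag number. A library with no peak in a region has no value there, and it is described as not listed. The 4 libraries did not share a common level: over the 58732 regions with a peak in all 4, the median was 0.767 and 0.614 in WT and 0.432 and 0.695 in IRF8KO. Differences are therefore given as log2 IRF8KO minus WT after each library's median was set to 0, and they are relative to the typical region. Without that step the median of all regions was −0.31 on the log2 scale. A region is called when the limma test, adjusted by Benjamini-Hochberg over all 58732 regions, gave a p under 0.05.

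Before the results, the cells were checked against marker genes. The Irf8 promoter itself had a normalised pileup of 2.07 and 1.49 in WT and 0.863 and 1.36 in IRF8KO and was not called, which does not check the genotype because the removed part is not known. Promoters of 8 microglial markers held strict peaks for 8 of 8 in both WT libraries and for 7 of 8 in both IRF8KO libraries, Sall1 being the one without. Their summed normalised pileup was 17.7 to 24.2 in WT and 9.65 to 15.6 in IRF8KO, before centring. Of the 7 with a peak in all 4 libraries, P2ry12 was called, falling from 3.73 and 2.37 to 0.749 and 1.39 (log2 −1.22, limma adjusted p = 5.44e-06), and the other 6 were not. The Sall1 promoter, which could not be tested, had 2.173 and 2.045 in WT. In IRF8KO it was not listed in replicate 1 and had a peak of 0.1359 in replicate 2 that was not strict. For 3 markers of border macrophages the sum was 0.43 to 0.511 in WT and 0.571 to 1.28 in IRF8KO, and Mrc1 alone accounted for the difference, with 0.341 and 0.286 in WT and 0.571 and 1.13 in IRF8KO (log2 1.69, limma adjusted p = 1.57e-05). Lyve1 had 0.17 and 0.143 in WT and 0.151 in 1 IRF8KO library, and no promoter peak of Cd163 was listed. The NK cell sum, from 2 markers, was 0 to 0.164 in WT and 0.47 to 0.529 in IRF8KO, where it came from Klrb1c alone and Ncr1 was not listed. The sums were lower in IRF8KO for astrocytes (0.327 to 0.682 in WT, 0 to 0.127 in IRF8KO), oligodendrocytes (1.47 to 2.05, then 0.495 to 1.15), endothelial cells (0.736 to 0.873, then 0.279 to 0.408), neurons (0.554 to 0.614, then 0.332 to 0.482) and B cells (0.225 to 0.405, then 0 to 0.14). The part of these shifts in the results below was not tested. The monocyte markers Ly6c2 and Ccr2 held no strict promoter peak in any library.

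Most promoters of interferon-stimulated genes were open in both genotypes and were not called, while a few moved strongly in opposite directions. Rsad2, Cmpk2, Gbp2 and Dhx58 rose in IRF8KO, and Mx1 and Isg20 fell. Without centring the calls of Cmpk2 (limma adjusted p = 0.191), Gbp2 (0.103) and Dhx58 (0.353) ended. Of the 336 regions, 118 had a peak in all 4 libraries and were tested, and the other regions did not pass this filter. Of the 118, 11 were called lower (9.32%, against 11.7% of all regions tested) and 22 higher (18.6%, against 13.5%). Among own promoters 6 of 58 were lower (10.3%, against 6.79% of all promoter regions) and 10 were higher (17.2%, against 6.54%). Among distal regions 5 of 51 were lower (9.8%, against 13.8% of all distal regions) and 12 higher (23.5%, against 16.4%). The 9 tested regions that were promoters of other, neighbouring genes gave no call by limma, and 0 of them had an unadjusted p under 0.05. The median log2 difference was 0.12 over own promoters, beside −0.01 over all promoters, and 0.10 over distal regions, beside 0.04 over all distal regions. Without centring these medians were −0.21 and −0.22, and by fold enrichment the own promoter median was −0.01.

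These counts depended on the processing. Without centring 5 regions were lower and 3 higher, and the higher share of all calls in the series went from 53.4% to 29.1%. By fold enrichment 10 were lower and 13 higher. Over all 58732 regions 4624 were then lower and 5314 higher, against 6895 and 7908 by centred pileup. Without WT replicate 1 both counts fell, among these regions and over all regions. Without WT replicate 2 the distal median was 0.28. With each library left out in turn, 14 of the 33 called regions (2 lower, 12 higher) kept their call every time. Of these, 5 were called without centring too: the Mx1 promoter, the Isg20 upstream region, the Rsad2 promoter, the region upstream of Rsad2 and an intronic region 629 bp past a Ddx58 start. The Ddx58 region had a peak in WT replicate 2 that was not strict. Not called without centring were, among others, the Cmpk2, Gbp2 and Dhx58 promoters and the Parp14 and Igtp regions.

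**Figure D1:**
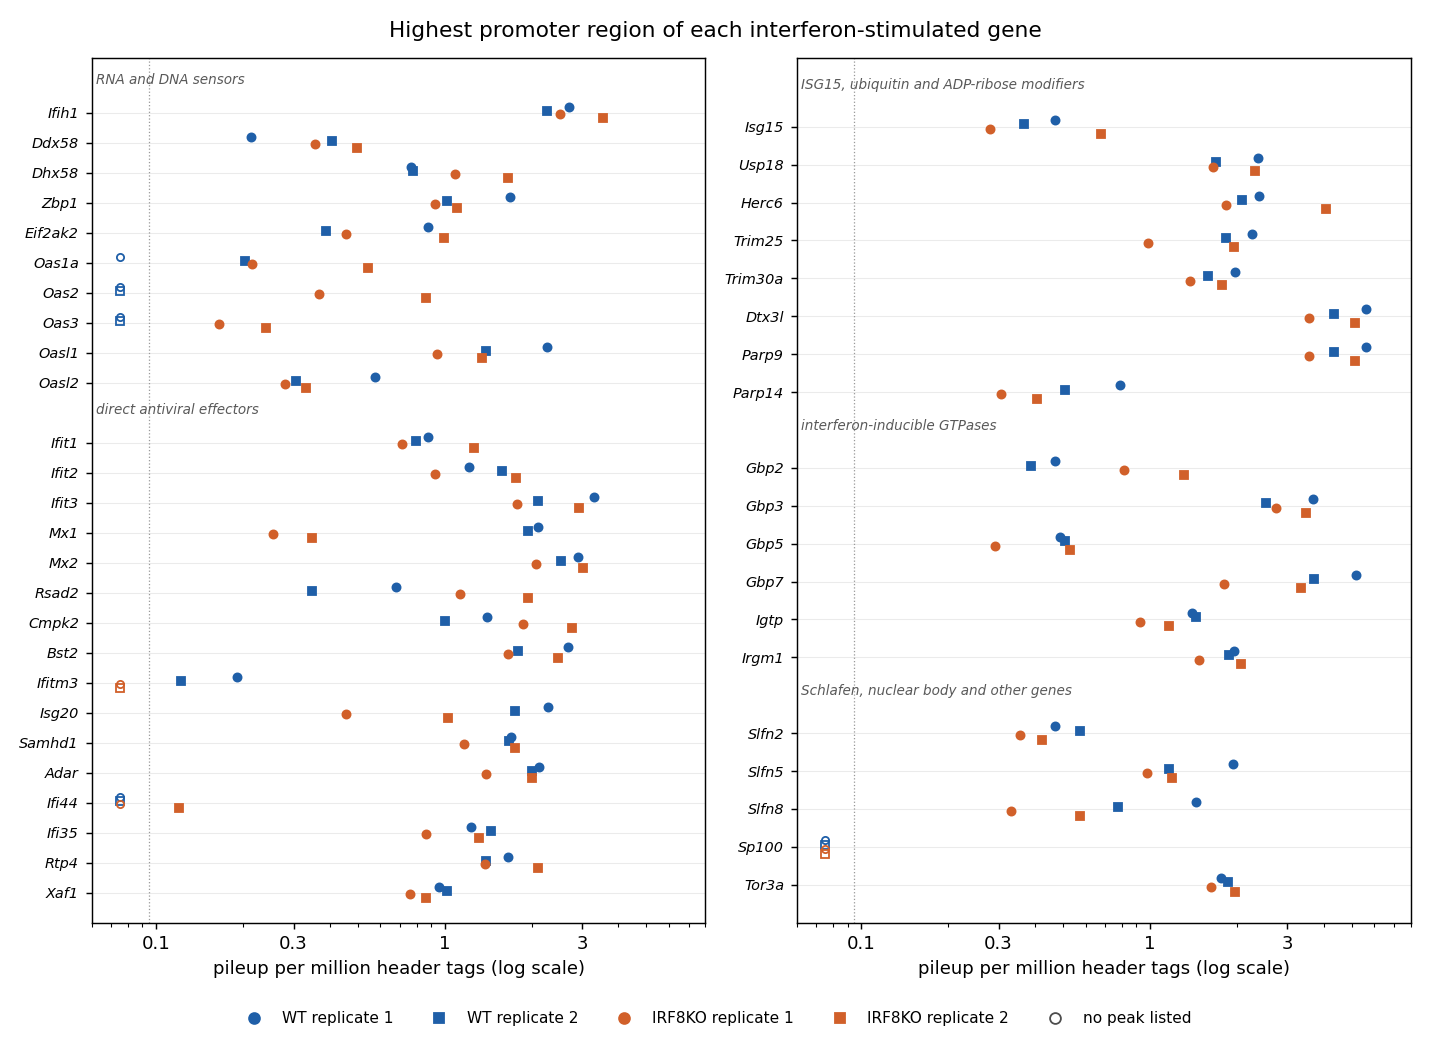
Highest promoter region of each of the 45 genes, grouped by role, as pileup per 1000000 header tags on a log axis. Blue is WT and orange IRF8KO, circles are replicate 1 and squares replicate 2, and open symbols left of the dotted line stand for a library with no peak listed. Values are not centred. The Mx1 points are at 2.11 and 1.94 (WT) and at 0.254 and 0.347 (IRF8KO), the Rsad2 points at 0.682 and 0.348 and at 1.13 and 1.95, and Oas2 and Oas3 are listed in IRF8KO alone.

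**Figure D2:**
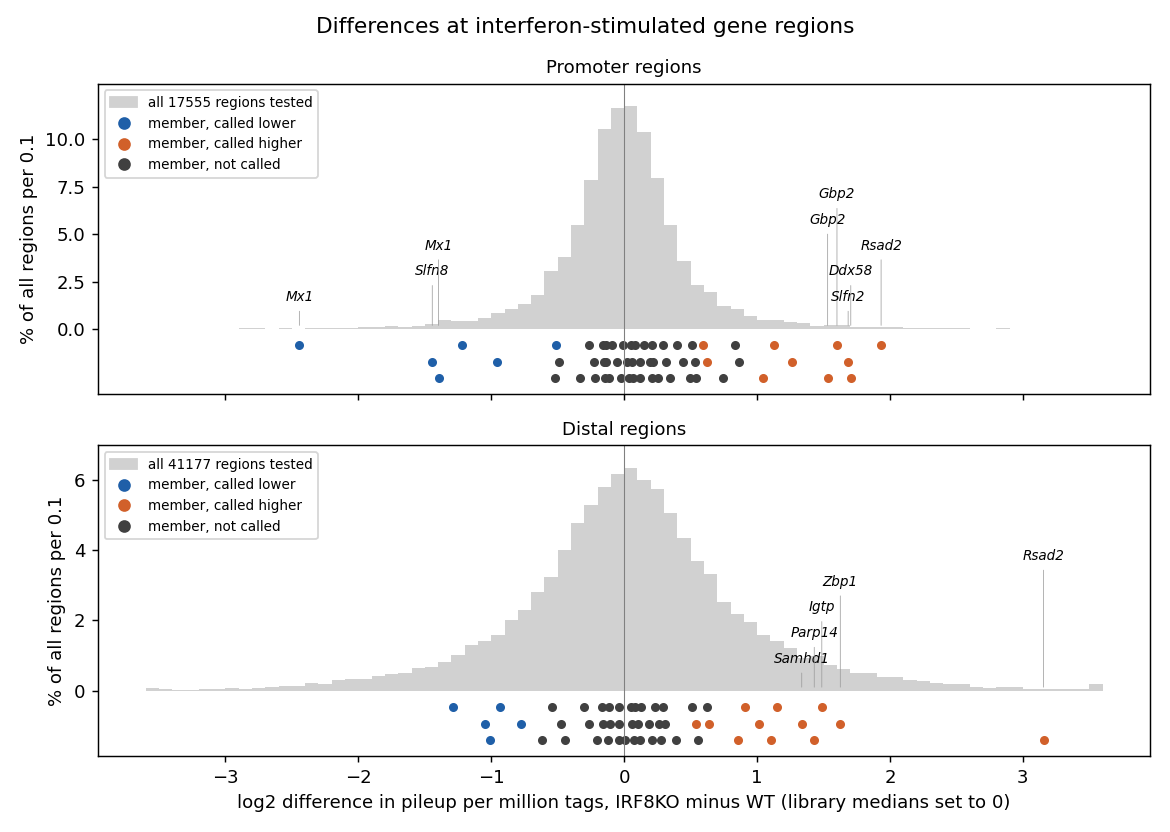
Log2 difference (IRF8KO minus WT, library medians set to 0) of the tested regions of interferon-stimulated genes, as dots stacked below the distribution of all tested promoter regions (top, 17555) and distal regions (bottom, 41177). Grey bars are percentages of regions per 0.1 log2 unit, with values beyond the ends counted in the end bars, and called regions beyond 1.3 in either direction are named. The dots span −2.44 to 1.93 for promoters and −1.29 to 3.16 for distal regions.

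Among the sensors of viral RNA and DNA, 3 of 11 own promoters tested (27.3%, against 6.54% of all promoters) rose, at Ifih1, Ddx58 and Dhx58, the 3 helicases that recognise viral RNA in the cytosol. By limma, 0 of the 11 fell (against 6.79% of all promoters), also at an unadjusted p under 0.05. Over all 26 tested regions of the 10 genes, 3 were lower (11.5%, against 11.7% of all regions) and 4 higher (15.4%, against 13.5%), shares near the background. Dhx58, which encodes LGP2, had a normalised promoter pileup of 0.767 and 0.777 in WT and 1.09 and 1.66 in IRF8KO (chr11:100704189-100704539, summit 132 bp upstream of the start). Both IRF8KO libraries lay above both WT libraries, and the log2 difference was 1.13 (SE 0.24, limma adjusted p = 0.000226). At Ddx58, which encodes RIG-I, the region that rose lay in an intron 629 bp past a start (chr4:40239024-40239300) and had values of 0.213 and 0.123 in WT and 0.355 and 0.498 in IRF8KO (log2 1.71, SE 0.37, limma adjusted p = 0.000243). Its peak in WT replicate 2 was not strict (−log10 q of 0.4535), and the value there was the lowest listed in that library. The highest Ddx58 promoter region overlapped between the genotypes and was not called. Ifih1, which encodes MDA5, had values of 2.71 and 2.27 in WT and 2.51 and 3.55 in IRF8KO. Its groups overlapped before centring, its log2 difference was 0.59 (limma adjusted p = 0.012), and the call ended without WT replicate 1 (adjusted p = 0.148), without WT replicate 2 (adjusted p = 0.15) and by fold enrichment (adjusted p = 0.379).

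Away from the promoters, the sensors moved both ways. Zbp1, which senses nucleic acids in the Z conformation and can start necroptosis, had a region 4785 bp upstream (chr2:173223622-173223844) with values of 0.277 and 0.266 in WT and 0.558 and 0.8 in IRF8KO (log2 1.63, SE 0.32, limma adjusted p = 6.9e-05). The groups did not overlap, but by the authors' fold enrichment the difference was 0.53 and not called (adjusted p = 0.359). Regions fell downstream of Ddx58 (0.767 and 0.511 in WT, 0.216 and 0.287 in IRF8KO), in a Dhx58 intron (0.809 and 0.552, then 0.216 and 0.362) and downstream of Oasl2 (2.68 and 1.8, then 0.914 and 1.15). All 3 calls ended without WT replicate 1 (limma adjusted p of 0.171, 0.192 and 0.129). Those of Ddx58 and Dhx58 also ended without IRF8KO replicate 2 (0.0755) and IRF8KO replicate 1 (0.0908) respectively. By fold enrichment the Oasl2 difference was −0.30 and not called (adjusted p = 0.439).

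Among the oligoadenylate synthetases, enzymes that on binding double-stranded RNA make the messenger that activates RNase L, Oas2 and Oas3 had promoters listed in IRF8KO alone. The Oas2 promoter (chr5:120749772-120750042, summit 53 bp upstream of the start) had a normalised pileup of 0.368 and 0.861 in IRF8KO and was listed in neither WT library. The Oas3 promoter (chr5:120777597-120777815) had 0.165 and 0.242 in IRF8KO and was likewise not listed in WT, and so were 2 intronic Oas3 regions. Another Oas3 promoter region, 745 bp past the start, was listed only in WT replicate 1, at 0.1704, and was not strict. At Oas1a, replicate 1 of WT was not listed and the other 3 libraries had 0.205, 0.216 and 0.544. Scaled to the WT depth, the lower of the IRF8KO values gives 17.3 cut sites at Oas2 and 7.75 at Oas3, and the lowest pileup in the whole WT lists is 6. The part of the detection limit in the missing peaks was not tested. The related Oasl1 and Oasl2 had their highest promoter region listed in all 4 libraries, at 2.26 and 1.39 in WT and 0.939 and 1.34 in IRF8KO for Oasl1, and at 0.575 and 0.307 then 0.279 and 0.332 for Oasl2, and neither was called. For Oasl1 this region had its summit 1207 bp upstream. The Oasl1 region 211 bp upstream, which held the ISRE letters, had 0.362 and 0.225 in WT and 0.406 and 0.423 in IRF8KO. It was not called either (log2 0.86, limma adjusted p = 0.0621). Oas1a has close copies beside it, and how reads shared between copies were handled is not given in the sources used here.

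Among the direct antiviral effectors, 37 regions of 16 genes were tested, of which 4 were lower (10.8%, against 11.7% of all regions) and 8 higher (21.6%, against 13.5%). Of 20 own promoters 3 moved in each direction (15%, against 6.79% lower and 6.54% higher among all promoters). Rsad2 and Cmpk2 made up the locus with the highest log2 difference of the list. The neighbours are read from separate starts in opposite directions. Rsad2 encodes viperin, which makes a chain-terminating nucleotide, and Cmpk2 a mitochondrial nucleotide kinase. A region 3864 bp upstream of Rsad2 (chr12:26460160-26460494), between both genes, had a normalised pileup of 0.447 and 0.491 in WT and 2.53 and 4.39 in IRF8KO. Both IRF8KO libraries were several times higher than either WT library. The mean rose from 0.469 ± 0.031 to 3.46 ± 1.3 (SD, n = 2), a ratio of 7.38, and the log2 difference was 3.16 (SE 0.23, limma adjusted p = 2.31e-16). The stretch printed above holds 1 of its 2 ISRE matches, 48 bp from the summit.

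The promoters on both sides rose with it. The Rsad2 promoter (chr12:26456315-26456717) had 0.682 and 0.348 in WT and 1.13 and 1.95 in IRF8KO (log2 1.93, SE 0.26, limma adjusted p = 3.88e-08). The groups did not overlap, though by fold enrichment the difference was 0.59 and not called (adjusted p = 0.141). The Cmpk2 promoter (chr12:26469024-26470044) had 1.41 and 1 in WT and 1.87 and 2.76 in IRF8KO (log2 1.26, SE 0.21, limma adjusted p = 3.03e-06). An intronic Rsad2 region 6856 bp past its start was listed only in IRF8KO, at 0.216 and 0.211.

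Mx1 moved the other way and more than any other tested promoter of the list. Mx1 encodes a dynamin-like GTPase that blocks influenza viruses, and the C57BL/6 allele is known to carry a deletion that leaves no working protein. Its promoter (chr16:97462842-97463577, summit 102 bp upstream of the start) had a normalised pileup of 2.11 and 1.94 in WT and 0.254 and 0.347 in IRF8KO. Neither IRF8KO library came near the WT values. The mean fell from 2.03 ± 0.12 to 0.301 ± 0.066 (SD, n = 2), a ratio of 0.148 (log2 −2.44, SE 0.26, limma adjusted p = 9.4e-11). In 736 bp, this region held 0 matches to the ISRE letters and 0 to the ETS-IRF letters, which says only that these spellings are not in it.

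A smaller Mx1 region at the start of the transcript (chr16:97462630-97462785) had 0.532 and 0.47 in WT and 0.19 and 0.121 in IRF8KO (log2 −1.40, limma adjusted p = 0.004). That call ended without IRF8KO replicate 2 (adjusted p = 0.185) and by fold enrichment (adjusted p = 0.386). A region 3858 bp upstream of Mx1 was listed only in WT, at 0.319 and 0.348. In the neighbouring Mx2, 2 regions near the end of the gene were listed only in WT, at 0.554 and 0.47 in a coding exon and at 0.682 and 0.245 in the UTR. The Mx2 promoter was not called, with overlapping groups.

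**Figure D3:**
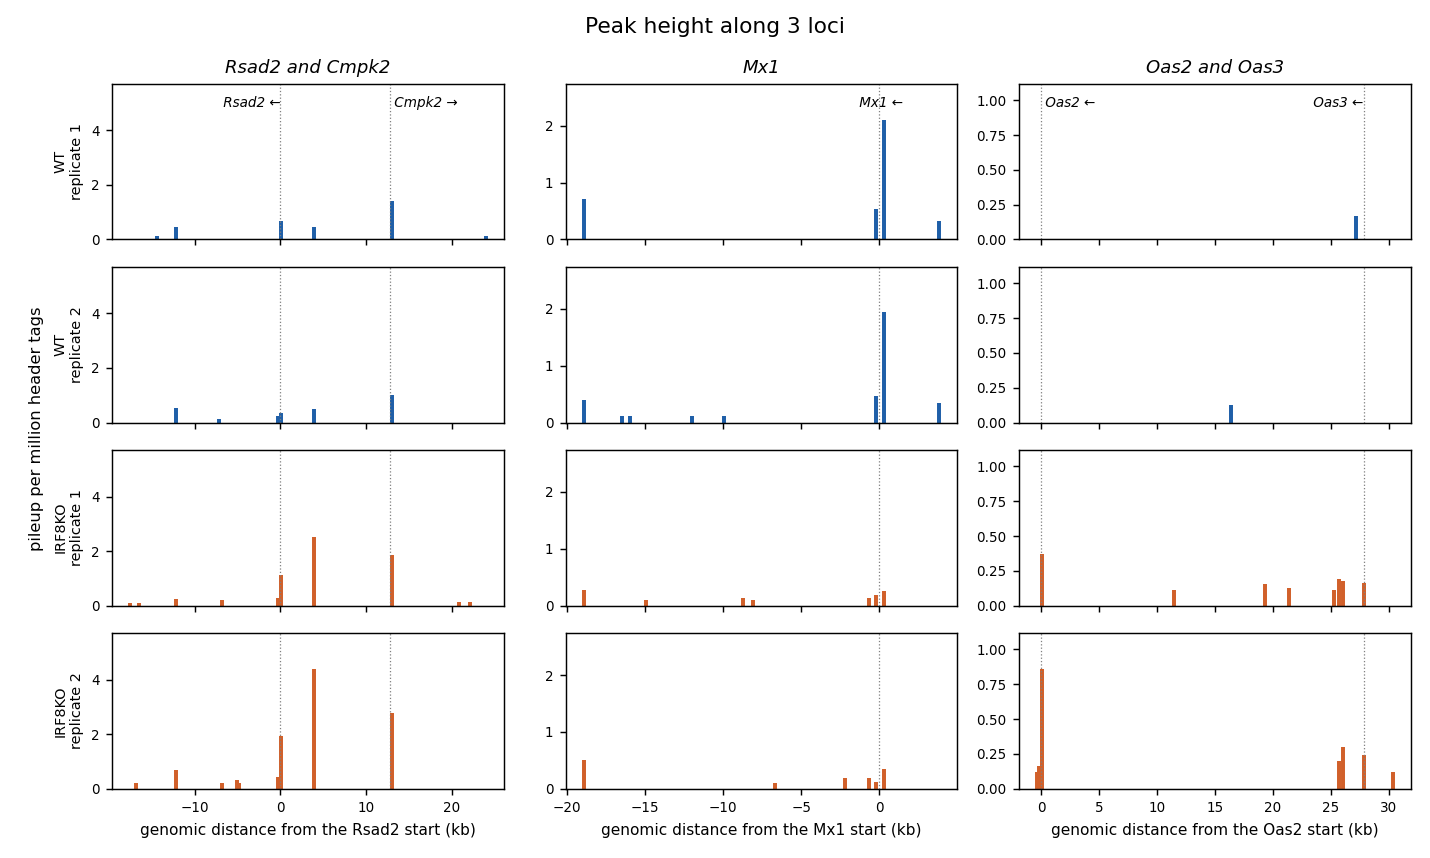
Peak height along the Rsad2 and Cmpk2, Mx1, and Oas2 and Oas3 loci in each of the 4 libraries, as pileup per 1000000 header tags against genomic distance from a start site in kb. Dotted lines mark the start sites, arrows give the direction of transcription, and a position with no bar has no peak listed in that library. The bar between Rsad2 and Cmpk2 reaches 2.53 and 4.39 in IRF8KO against 0.447 and 0.491 in WT, and the tall bar at the Mx1 start in WT is low in IRF8KO.

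Isg20, an exonuclease that degrades single-stranded RNA, lost height upstream of its start. The region 841 bp upstream (chr7:78912281-78912723) had a normalised pileup of 2.28 and 1.76 in WT and 0.457 and 1.03 in IRF8KO. Its groups did not overlap and the ratio was 0.367 (log2 −1.22, SE 0.23, limma adjusted p = 4.03e-05). It held the ETS-IRF match printed above, 13 bp from the summit, and no ISRE match. The Isg20 region at the start itself (chr7:78913551-78914075), which held the ISRE letters, had 1.77 and 1.35 in WT and 1.04 and 1.25 in IRF8KO and was not called (log2 −0.11, limma adjusted p = 0.79).

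The highest promoter regions of the Ifit genes, whose proteins bind viral RNA, were not called. Ifit1 had a normalised promoter pileup of 0.873 and 0.798 in WT and 0.711 and 1.27 in IRF8KO, and its groups overlapped (log2 0.51, limma adjusted p = 0.142). Ifit3 had 3.28 and 2.11 in WT and 1.78 and 2.93 in IRF8KO (log2 0.12, limma adjusted p = 0.722), and the sign changed without centring (−0.20), by fold enrichment (−0.45) and without WT replicate 2 (−0.12). Ifit2 rose in a small region 148 bp past its start, with 0.341 and 0.286 in WT and 0.584 and 0.453 in IRF8KO (log2 1.04, limma adjusted p = 0.0178). It also rose in a UTR region 19553 bp past the start (1.53 and 1.35, then 1.37 and 2.33; log2 0.64, limma adjusted p = 0.0188). Both Ifit2 calls ended without WT replicate 1 (0.0655 and 0.188) or WT replicate 2 (0.0674 and 0.125), the first also without IRF8KO replicate 1 (0.378) and the second without IRF8KO replicate 2 (0.0608) and by fold enrichment (0.517). A region near the end of Ifit3 was listed only in IRF8KO, at 0.381 and 0.378. These genes are close paralogs in a cluster, so their peaks are uncertain in the way given for Oas1a.

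The Bst2 promoter was not called, and a region downstream of the Ifitm3 start was listed only in IRF8KO. Bst2, the tetherin that holds budding virions, had a normalised promoter pileup of 2.68 and 1.8 in WT and 1.66 and 2.46 in IRF8KO, with overlapping groups (limma adjusted p = 0.516). Ifitm3, which blocks fusion of viral and cell membranes, had only weak promoter peaks in WT, at 0.192 and 0.123, and none listed in IRF8KO. Neither WT promoter peak was strict (−log10 q of 1.803 and 0.4535), so the Ifitm3 promoter did not count as listed in WT alone. A region 2304 bp downstream of the Ifitm3 start had 0.647 and 0.619 in IRF8KO and none listed in WT.

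Samhd1, which depletes the nucleotides that viruses need, and Rtp4, an inhibitor of flavivirus replication, held several moving sites. At Samhd1, a region 3772 bp upstream fell from 0.66 and 0.777 to 0.165 and 0.332 (log2 −1.29, limma adjusted p = 0.00204). A pair of adjoining intronic Samhd1 regions rose, 1 from 0.49 and 0.204 to 0.457 and 0.891 (log2 1.34) and 1 from 0.192 and 0.184 to 0.343 and 0.302 (log2 1.10). All 3 calls ended without WT replicate 2 (limma adjusted p of 0.0715, 0.141 and 0.0715), and the last also without WT replicate 1 (0.152) and IRF8KO replicate 1 (0.299), and by fold enrichment (0.166). An intronic Samhd1 region 35484 bp past the start was listed only in IRF8KO, at 0.317 and 0.664. Rtp4 had 2 minor promoter regions listed only in IRF8KO, at 0.165 and 0.332 (an alternative start, chr16:23520192-23520385) and at 0.216 and 0.332. Its intronic call (0.32 and 0.245, then 0.355 and 0.498; limma adjusted p = 0.0417) ended with any of WT replicate 1 (0.12), WT replicate 2 (0.204), IRF8KO replicate 1 (0.141) or IRF8KO replicate 2 (0.0781) left out.

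ISG15 is a ubiquitin-like protein, and the genes that attach it, remove it or modify proteins by ubiquitin or ADP-ribose were tested at 25 regions, of which 4 were called higher (16%, against 13.5% of all regions) and 0 lower by limma (against 11.7%), also 0 lower at an unadjusted p under 0.05. Of 10 own promoters tested, 1 was called higher (10%, against 6.54% of all promoters), at Herc6, the mouse ligase that attaches ISG15. Isg15 itself had a normalised promoter pileup of 0.469 and 0.368 in WT and 0.279 and 0.68 in IRF8KO, which overlapped (log2 0.39, limma adjusted p = 0.437). Usp18, which removes ISG15 and damps receptor signalling, had 2.36 and 1.7 in WT and 1.66 and 2.31 in IRF8KO and was not called (limma adjusted p = 0.323). By contrast, a Usp18 region over a coding exon 15541 bp past the start (chr6:121261102-121261777) was listed only in WT, at 0.958 and 0.532, and so was a second one at 0.341 and 0.205.

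Herc6 and Parp14 rose inside the gene. The Herc6 promoter had 2.39 and 2.09 in WT and 1.84 and 4.08 in IRF8KO. Its groups overlapped, and the call (log2 0.62, limma adjusted p = 0.0121) ended without WT replicate 1 (0.158), WT replicate 2 (0.106) or IRF8KO replicate 2 (0.192), and by fold enrichment (0.324). A Herc6 intronic region 60995 bp past the start (1.55 and 1.21 in WT, 1.52 and 2.58 in IRF8KO; log2 0.86, limma adjusted p = 0.00108) kept its call with each library left out, although its groups overlapped before centring and it was not called by fold enrichment (0.156). Parp14, an ADP-ribosyltransferase, had an intronic region (chr16:35869122-35869574) at 0.682 and 0.47 in WT and 0.926 and 1.6 in IRF8KO (log2 1.43, SE 0.26, limma adjusted p = 1.41e-05), without overlap. Its promoter lay lower in both IRF8KO libraries, at 0.305 and 0.408 against 0.788 and 0.511, and was not called (limma adjusted p = 0.246).

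Trim25, a ubiquitin ligase acting on RIG-I, had a downstream region with 3.88 and 2.94 in WT and 4.02 and 3.83 in IRF8KO (log2 0.54, limma adjusted p = 0.0259). That call ended without WT replicate 1 (0.112), WT replicate 2 (0.289) or IRF8KO replicate 1 (0.414), and by fold enrichment (0.891). An intronic Trim25 region was listed only in IRF8KO (0.228 and 0.332) and a region downstream of Dtx3l, a partner of Parp9, only in WT (0.213 and 0.245). Dtx3l and Parp9 share 1 promoter region, which was not called.

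The interferon-inducible GTPases attack the vacuoles in which intracellular microbes live, and here Gbp2 rose and Gbp7 fell at the promoter. Of 18 tested regions of the 6 genes, 2 were lower (11.1%, against 11.7% of all regions) and 4 higher (22.2%, against 13.5%). The Gbp2 promoter (chr3:142620320-142620929) had a normalised pileup of 0.469 and 0.389 in WT and 0.812 and 1.31 in IRF8KO (log2 1.60, SE 0.28, limma adjusted p = 6.89e-06). A second Gbp2 region 765 bp upstream had 0.298 and 0.204 in WT and 0.457 and 0.71 in IRF8KO (log2 1.53, limma adjusted p = 0.00028). In both, each IRF8KO library lay above each WT library. Over a coding exon of the same gene a region fell from 0.788 and 0.614 to 0.178 and 0.408 (log2 −1.04, limma adjusted p = 0.0116), a call that ended without WT replicate 1 (0.0756) and IRF8KO replicate 1 (0.146).

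The Gbp7 promoter was among the tallest of the list, with 5.18 and 3.7 in WT and 1.8 and 3.34 in IRF8KO. Its groups did not overlap, and the log2 difference was −0.51 (limma adjusted p = 0.0275). The call ended without WT replicate 1 (0.296), WT replicate 2 (0.0574) or IRF8KO replicate 1 (0.144), and by fold enrichment (0.793).

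Distal sites were called higher at Igtp and Gbp5. A region downstream of Igtp (chr11:58210903-58211486) had 0.852 and 0.634 in WT and 1.42 and 1.9 in IRF8KO (log2 1.49, SE 0.24, limma adjusted p = 1.21e-06). A region 3222 bp upstream of Gbp5 had 0.532 and 0.614 in WT and 0.685 and 1.24 in IRF8KO (log2 1.01, limma adjusted p = 0.0035), a call that ended without WT replicate 1 (0.116). Gbp3 had an intronic region listed only in IRF8KO, at 0.597 and 0.8 (chr3:142561552-142561779), and a downstream region listed only in WT, at 0.533 and 0.307. Regions at Irgm1 (0.381 and 0.498) and in the Gbp5 UTR (0.178 and 0.227) were listed only in IRF8KO. The Gbp genes and Igtp have close paralogs beside them, with the same uncertainty.

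The Schlafen genes, which restrict the growth of lymphocytes and viruses, had called regions in both directions. Of 12 tested regions of the last group, 2 were lower and 2 higher (16.7% each, against 11.7% and 13.5% of all regions), few regions with shares not far from the background. Slfn8 fell at its promoter (chr11:83020675-83021025), from 1.45 and 0.777 in WT to 0.33 and 0.574 in IRF8KO (log2 −0.96, SE 0.28, limma adjusted p = 0.00718). It fell too in an intron 387 bp past the start, from 0.49 and 0.491 to 0.152 and 0.136 (log2 −1.44, limma adjusted p = 0.00223). Neither pair of groups overlapped. The first call ended without WT replicate 1 (0.235) and the second without IRF8KO replicate 2 (0.0532). Slfn2 rose 955 bp upstream of its start, from 0.277 and 0.143 to 0.368 and 0.71 (log2 1.69, SE 0.35, limma adjusted p = 0.000165). An intronic Slfn2 region rose from 0.49 and 0.225 to 0.52 and 0.664 (log2 1.15, limma adjusted p = 0.00583), and that call ended without WT replicate 2 (0.25) and by fold enrichment (0.0508). The Slfn genes are paralogs in a cluster as well.

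Taking the highest promoter region of each gene, 39 genes had it listed in all 4 libraries. It was lower in IRF8KO for 4 (Mx1, Isg20 at its upstream region, Gbp7 and Slfn8; 6.79% of all promoter regions were lower), higher for 6 (Ifih1, Dhx58, Rsad2, Cmpk2, Herc6 and Gbp2; 6.54% were higher) and not called for 29. In those 29 the log2 difference ran from −0.52 to 0.84, with limma adjusted p from 0.078 to 0.991 and SE from 0.166 to 0.361. An SE of this size leaves room for changes that the test would not call.

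Regions listed in 1 genotype alone were counted apart, because a missing peak has no value to test. Such a region held strict peaks in both libraries of 1 genotype and no listed peak in either library of the other. Of the 219 regions with a strict peak in at least 1 library, 8 were WT-only (3.65%, against 5.59% of all 155258 such regions) and 16 were IRF8KO-only (7.31%, against 3.87%). All 8 WT-only regions were among the 120 distal ones (6.67%, against 6.23% of all distal regions), and 0 of 87 own promoters were WT-only (against 2.45% of all promoters). The IRF8KO-only regions were 4 own promoters (4.6%, against 2.2%), 1 of Oas2, 1 of Oas3 and 2 of Rtp4, and 12 distal regions (10%, against 4.21%). These counts moved with the threshold, to 4 and 6 at a −log10 q of 5 and to 2 and 4 at a fold enrichment of 5, and with 1 library left out they ran from 10 to 20 and from 20 to 30. Shares over all regions were not computed at these settings, so the counts there cannot be set beside the whole series. The IRF8KO libraries were the deeper ones by header tags, but held fewer strict peaks (84192 and 96066, against 97696 and 99110 in WT), and the part of depth was not tested. The pileup expected in the libraries without a peak, scaled to their depth, came to 7.75 to 29.1 cut sites for the IRF8KO-only regions, where the lowest listed WT pileup was 6. For the WT-only regions it came to 13.5 to 35.2 in the shallower IRF8KO library, replicate 2, where the lowest listed was 7. These minima are taken over the whole list and are not the local threshold of each region.

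**Figure D4:**
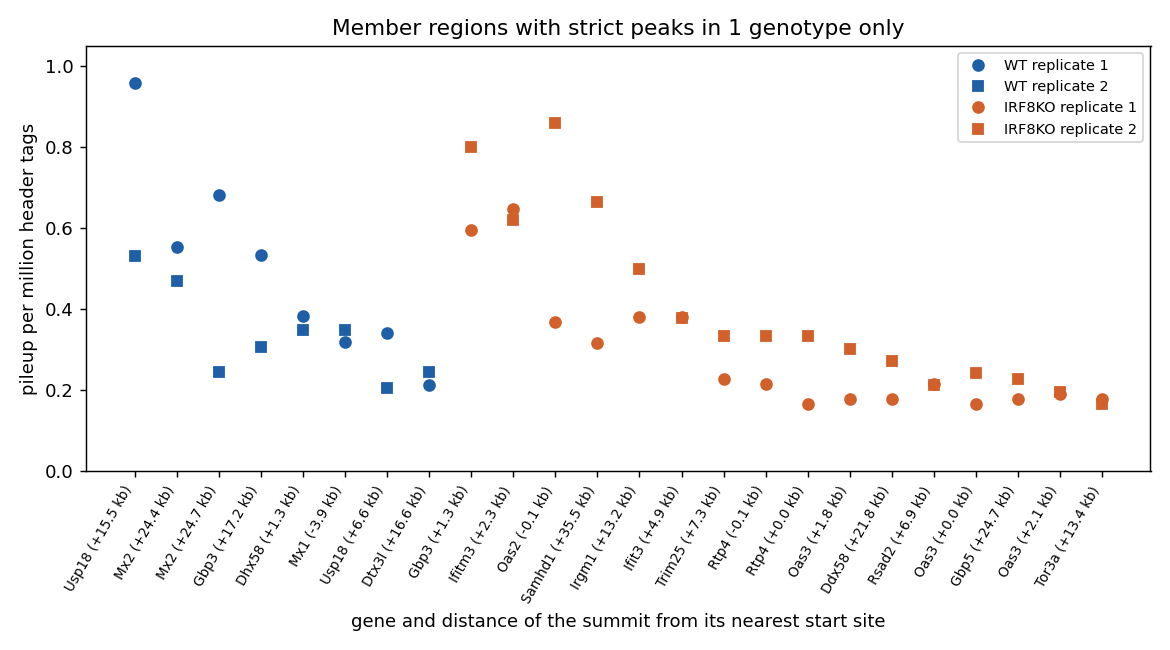
Pileup per 1000000 header tags of the 8 WT-only (blue) and 16 IRF8KO-only (orange) regions in the libraries that list them, labelled by gene and by the distance of the summit from its nearest start site. Circles are replicate 1 and squares replicate 2, and the libraries of the other genotype have no peak there. The highest value is 0.958 at Usp18 among WT-only regions and 0.861 at Oas2 among IRF8KO-only ones.

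The ISRE letters were found in promoters that moved in either direction and in those not called. Of own promoters, 2 of the 6 lower, 3 of the 10 higher, 22 of the 42 not called and 2 of the 4 IRF8KO-only regions held them near the summit, beside 4.11%, 2.35%, 2.01% and 2.76% of all promoters of the same classes. The ETS-IRF letters were in 1 of the 6 lower, 1 of the 10 higher and 6 of the 42 not called, beside 9.23%, 2.79% and 1.89%. Among distal regions, 0 of 5 lower and 2 of 12 higher held the ISRE letters, beside 5.96% and 3.17% of all such regions, and none of these 17 held the ETS-IRF letters. In the whole series the ETS-IRF letters lay in 13.9% of lower and 2.51% of higher distal regions, and in 19.2% of WT-only and 1.92% of IRF8KO-only ones. Of the 8 WT-only distal regions here 1 held them, at the end of Mx2.

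Upstream of these genes, the receptors and the relay from receptor to nucleus were tested at 48 regions of 12 genes, of which 6 were lower (12.5%, against 11.7% of all regions) and 4 higher (8.33%, against 13.5%). Of 104 regions with a strict peak 5 were WT-only (4.81%, against 5.59%) and 1 was IRF8KO-only (0.962%, against 3.87%). None of the 17 promoter regions tested was called by limma (against 6.79% lower and 6.54% higher among all promoters), with log2 differences from −0.54 to 0.39 and an unadjusted p under 0.05 in 1 lower and 1 higher region. Stat2 had a normalised promoter pileup of 5.56 and 4.52 in WT and 3.77 and 5.38 in IRF8KO (limma adjusted p = 0.523), and Irf9 had 2.66 and 2.76 then 1.66 and 2.64 (0.907).

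The other list held genes that sense infection and induce interferon. Of 61 tested regions at 14 genes, 14 were lower (23%) and 5 higher (8.2%), beside 11.7% and 13.5% of all regions tested. The lists were not tested against each other. Tlr9, the endosomal DNA receptor, fell at its promoter from 4.03 and 3.09 to 0.838 and 1.56 (log2 −1.30, limma adjusted p = 5.53e-07) and in a second region from 1.6 and 1.21 to 0.216 and 0.347 (log2 −2.02). Mavs, the adaptor of the RNA helicases, fell in a minor promoter region from 1.11 and 0.757 to 0.254 and 0.332 (log2 −1.33, limma adjusted p = 0.000523). Irf7, the factor that amplifies interferon production and is itself interferon-stimulated, rose from 0.98 and 1.33 to 1.17 and 1.84 (log2 0.69, limma adjusted p = 0.0237), with overlapping groups. A minor promoter region of Ifnb1, the gene of interferon beta, was listed only in WT (0.383 and 0.327). Minor promoter regions of Irf5 (0.774 and 0.755), Tlr3 (0.457 and 0.453) and Tbk1 (0.279 and 0.468) were listed only in IRF8KO.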

How the data were processed

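ATAC-seq peak lists of 2 WT and 2 IRF8KO microglia libraries were analysed, grouped by the genotype label. Per the file headers, peak calling by the authors was run on 1 library at a time in MACS 2.1.1.20160309, with no control sample and a p cutoff of 0.01. The submitters' processing notes name mm10, Bowtie2, bcl2fastq, MACS2 and deepTools. The deposited pileup is a signal at the summit and is not adjusted for sequencing depth. Fold enrichment, as deposited, is its ratio to the local background. The deposited p and q are −log10 values, and the q column held values although the headers say that none was calculated. Depth followed genotype, as did tag size (50 bp in WT, 49 bp in IRF8KO), and neither can be told apart from it.

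Peaks on the autosomes and X that overlapped by 1 bp or more were merged. Gene models were those of GENCODE M21 for GRCm38. A library's value was its highest pileup in the region per 1000000 header tags. Log2 values, centred on each library's median, were fitted with limma 3.58.1 (R 4.3.3; eBayes with trend) over all regions listed in all 4 libraries, called at a Benjamini-Hochberg adjusted p under 0.05. The scripts were tested on simulated data. A 2 against 2 design cannot reach 0.05 by an exact permutation test. Sequences were read from GRCm38, with RefSeq for the promoter table. The members and gene lists were chosen with earlier results of these data known. Values are given for members with a called or genotype-only region, up to 30 by size (Tor3a, the weakest, is counted and plotted only), and for 9 reference promoters. Alternatives were other scalings, fold enrichment, a strict filter, no trend, a replicate block, each library left out, other thresholds and other flanks. Peak scores are the authors' own.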

Additional observations from a re-analysis of the deposited data

How the results depend on the processing

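No called region changed direction under the 11 alternative fits, and 4 of 33 were called in each fit that tested them: the Mx1 promoter, the Isg20 upstream region, the region upstream of Rsad2 and the Ddx58 intronic region. The Ddx58 region was not tested under the strict filter, because its peak in WT replicate 2 was not strict. Calls ended at 25 regions without centring, 12 by fold enrichment, 14 without WT replicate 1, 11 without WT replicate 2, 7 without IRF8KO replicate 1 and 6 without IRF8KO replicate 2. Without the eBayes trend 7 calls ended, and with quantile normalization 1. Without centring the count was 5 lower and 3 higher, beside 4008 and 1643 over all regions. The median log2 difference was then −0.21 over own promoters and −0.22 over distal regions. The not-called Bst2 (−0.12), Usp18 (−0.0316) and Ifit3 (−0.20) promoters changed sign. By fold enrichment 10 regions were lower and 13 higher, beside 4624 and 5314 over all regions. The own promoter median was then −0.00633, and the signs changed at Ifit3 (−0.446) and Bst2 (−0.00453). With 1 library left out, the Ifit3 difference ran from −0.115, a changed sign without WT replicate 2, to 0.272. The cause was not tested.

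Gene bodies with no flank gave 7 lower and 5 WT-only regions. WT-only counts were 4 at a −log10 q of 5, 2 at a fold enrichment of 5 and 16 with any listed peak. IRF8KO-only counts were 6 at a −log10 q of 5 and 4 at a fold enrichment of 5. For the genotype-only counts, shares over all regions were not computed at these settings. With 1 library left out, the counts ran from 5 to 12 lower, 14 to 21 higher, 10 to 20 WT-only and 20 to 30 IRF8KO-only, and the medians from 0.0891 to 0.198 (own promoters) and from 0.0476 to 0.276 (distal). These fits pool the spread and assume that the lone library varies like the other group. Counts of genotype-only regions rise there because fewer libraries must agree. Same-numbered libraries did not deviate together (correlation 0.002), so the numbers were not taken as pairs; with a replicate block the counts were 11 lower and 22 higher, the medians 0.12 and 0.103, and no called region lost its call. The lowest listed pileup was 6 in both WT libraries and 8 and 7 in IRF8KO, and the part of depth in the listing of weak peaks was not tested.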
